A study of Mus musculus with 19 samples.

Results

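Csn1s2a and Csn1s2b encode the alpha-S2 caseins of mouse milk and lie side by side as a duplicated pair in the casein locus. Both genes were taken by symbol from the count tables, so that they are 2 of the 24421 genes counted, and their reads were followed through all 19 libraries of mammary tissue. The question was how each paralog rose in pregnancy and how each responded when an enhancer of the locus was deleted. WT tissue on the C57BL/6 background gave 3 libraries at day 6 of pregnancy (p6) and 3 at day 18 (p18). Mice labelled Csn_S1-4, with the genotype Enhancer-delS1-4, lack the super-enhancer downstream of Csn1s2b and are written ΔSE here, with 4 libraries at each stage. ΔCsn3-PE tissue gave 2 libraries, from mice that lack the proximal enhancer of Csn3, and ΔCsn1s2b-E tissue gave 3, from mice that lack an enhancer of Csn1s2b that the labels do not specify. These 5 libraries are labelled p18, but their extraction notes name WT tissue from lactation, so that their stage is uncertain. The study's methods describe its mutants as homozygous deletions made by CRISPR/Cas9, and its text does not describe the single-enhancer libraries.

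Caseins are the main proteins of milk. Their genes sit in one cluster, and transcription is switched on in the secretory epithelium of the mammary gland by prolactin acting through the transcription factor STAT5, together with glucocorticoid receptor and NFIB. Csn1s1, Csn2 and the alpha-S2 caseins are calcium-binding phosphoproteins, and Csn3, the kappa casein, covers the surface of the casein micelle.

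In the GENCODE annotation of GRCm38 (mm10), Csn1s2a (ENSMUSG00000061937) lies on the plus strand at chr5:87774567-87788797 and Csn1s2b (ENSMUSG00000061388) on the same strand at chr5:87808082-87824426, 19284 bases further on. The reference transcript of Csn1s2a has 14 exons and 920 bases, and that of Csn1s2b has 12 exons and 810 bases. Their coding sequences are shown first because reads of a duplicated pair can be confused. The first 48 coding bases align without a gap and share 38 bases, given in capitals.
Csn1s2a: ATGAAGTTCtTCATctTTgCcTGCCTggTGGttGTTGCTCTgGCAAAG
Csn1s2b: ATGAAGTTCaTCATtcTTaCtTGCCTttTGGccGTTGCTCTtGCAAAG
Beyond this start the genes are less alike. Over the whole alignment 303 of 414 paired coding bases were identical (73.2%), with 138 bases of Csn1s2a and 15 of Csn1s2b left without a partner. The longest run of bases that any annotated transcripts of the pair have in common is 12, given in capitals within its surroundings.
Csn1s2a: ggataagtcCTCCAGTGAGGAatcatctgc
Csn1s2b: gcaatacatCTCCAGTGAGGAgtccatgga
No run of 16 bases, and none of 50, was found in both genes. A read of 50 bases from one gene therefore has no exact match in the annotated transcripts of the other.

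The promoter of Csn1s2a in the RefSeq table (GRCm38.p6, chr5:87774200-87774499) is shown because the deletions concern STAT5-bound enhancers. It holds 1 match to TTCNNNGAA, the letters of the STAT5 site, given in capitals.
Csn1s2a: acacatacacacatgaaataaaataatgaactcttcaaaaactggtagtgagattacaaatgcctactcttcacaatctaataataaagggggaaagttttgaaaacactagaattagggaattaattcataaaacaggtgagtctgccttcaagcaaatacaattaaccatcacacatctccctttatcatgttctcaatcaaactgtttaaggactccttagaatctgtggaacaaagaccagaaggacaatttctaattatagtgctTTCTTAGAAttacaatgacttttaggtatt
The match begins 97 bases before the GENCODE start of the gene, at 87774470, and at base 21 counted from the RefSeq start. Csn1s1 and Csn2, which also rise in pregnancy, hold 1 match each, 100 and 93 bases before their RefSeq starts.
Csn1s1: tttgtaacaaTTCTTAGAAtttatgtaaa
Csn2: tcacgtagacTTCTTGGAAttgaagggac
The motif is a palindrome in its fixed letters, both strands were searched, and 8.3% of the 32851 promoters of this length hold it. The letters TGGCA, bound by NFIB, were not in the Csn1s2a window, while 48.9% of all promoters hold them. The STAT5 site with a longer spacer was not in it either and is held by 6.95% of promoters. Csn1s2b is not among the promoters of the table.

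Total reads in genes ranged from 12335272 to 20525175 in WT and ΔSE libraries and from 26848053 to 30329601 in the single-enhancer lines. The ribosomal RNA precursor Rn45s took between 21.7 and 42.9% of the reads in the former and at most 0.924% in the latter. WT and ΔSE libraries thus form one set and the single-enhancer lines another, which has no WT libraries of its own, so that set and genotype cannot be told apart in comparisons between them. Luminal epithelial markers were detected in every group, with 8 of 8 listed genes carrying reads. Markers of skeletal muscle, a neighbour of the gland, differed widely between libraries. In bulk tissue, fewer secretory cells and less RNA per cell cannot be told apart. Levels below are reads divided by library size and scaled by TMM factors over all 19 libraries (normalized CPM), whereas fold changes come from edgeR models. Where the levels of a gene are said not to overlap between groups, the share of all genes that did the same was not counted.

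In WT tissue both paralogs rose between p6 and p18. Csn1s2a had 11719, 586 and 20188 reads in the 3 libraries at p6 and 490657, 502576 and 514991 at p18. The level was 926, 30.3 and 964 normalized CPM at p6 and 33792, 32628 and 27393 at p18. The stages did not overlap, and the second library at p6 stood far below the other two. Csn1s2b had 56, 32 and 105 reads at p6 and 3156, 1009 and 802 at p18, or 4.43, 1.65 and 5.01 normalized CPM at p6 and 217, 65.5 and 42.7 at p18. Again the stages did not overlap, and the first library at p18 was the highest.

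The log2 fold change from p6 to p18 in WT tissue was 5.63 for Csn1s2a (SE 0.90, edgeR's quasi-likelihood test with Benjamini-Hochberg adjustment, adjusted p = 0.000262) and 4.91 for Csn1s2b (SE 1.14, adjusted p = 0.00401). In this comparison 29.6% of all genes were called, so a call alone does not set a gene apart, although the changes were larger in size than those of 99.7% and 99.5% of the genes tested. Csn1s1, Csn2 and Csn3 rose by 4.43, 4.91 and 4.54 on the same scale. Among the 14 milk protein genes encoded elsewhere all 14 rose, with a median log2 fold change of 3.79 against -0.05 over all genes. Both calls of the pair were lost with 1 factor of unwanted variation (adjusted p = 0.309 and 0.591), a factor whose values separated the stages. Glycam1, a secreted mucin-like milk protein, rose by 9.42, and Wap, the whey acidic protein, by 10.07.

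**Figure D1:**
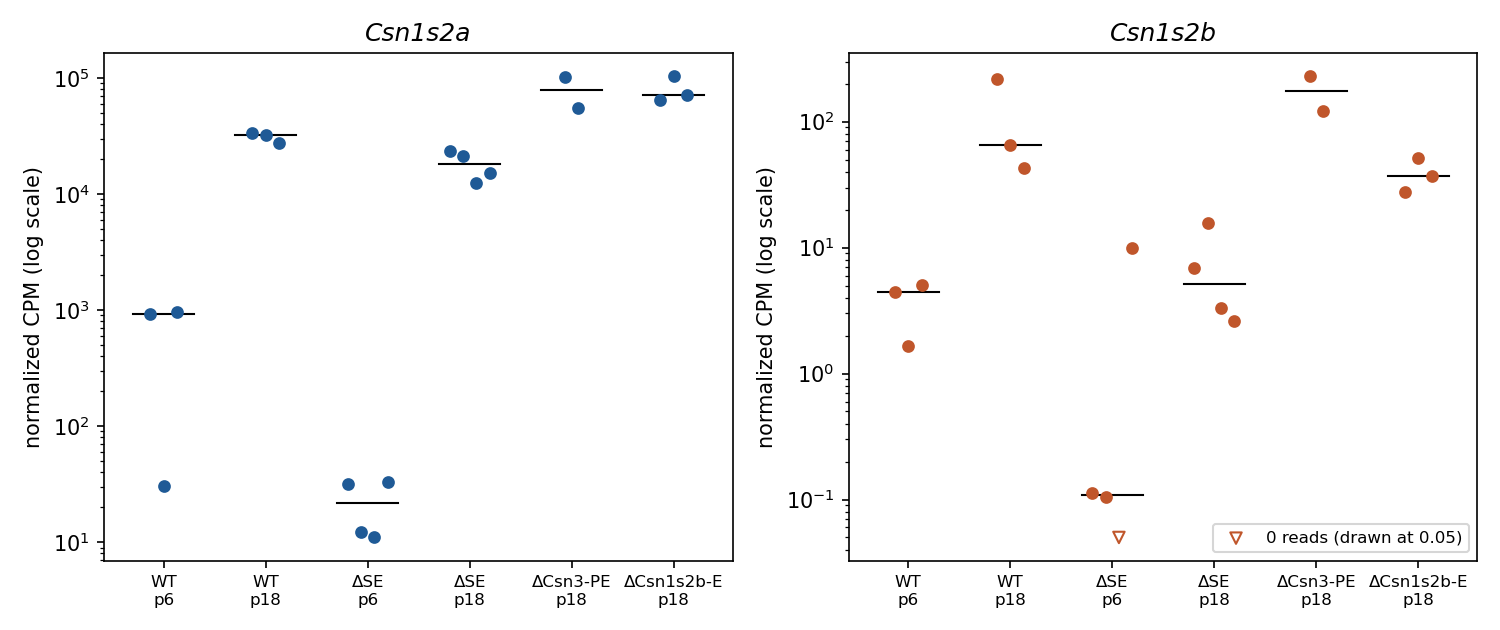
Normalized CPM of Csn1s2a (left) and Csn1s2b (right) in each library on log axes, by group, with a bar at the group median. A triangle marks the ΔSE library at p6 with 0 reads of Csn1s2b. Csn1s2a at p18 sits between 12435 and 104147 in every group, while Csn1s2b at p18 spans 2.62 to 230.

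Csn1s2a was the more abundant paralog in all 19 libraries. Compared per kilobase of transcript, Csn1s2a stood at 29775 to 36730 normalized CPM per kb in WT tissue at p18 and Csn1s2b at 52.7 to 268. The quotient of these levels was 137, 439 and 565 in the 3 libraries. At p6 it was 184, 16.1 and 169. Csn1s2a was the third most abundant transcript by normalized CPM in all 3 WT libraries at p18, and Csn1s2b ranked 301st, 1991st and 3141st.

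In tissue without the super-enhancer at p18, the mean level of Csn1s2a was 57.7% and that of Csn1s2b 6.59% of the WT mean, and the change passed the test for neither gene. Csn1s2a had 249034, 233174, 182522 and 224921 reads in the ΔSE libraries at p18, or 23365, 21283, 12435 and 15093 normalized CPM. All 4 lay below the lowest WT library (27393), and the SD was 16.4% of the WT mean (n = 4). The log2 fold change was -0.79 (SE 0.69, edgeR adjusted p = 0.702), with a 95% interval from -2.13 to 0.56. The exact two-sided permutation test of the levels gave p = 0.0571, the smallest this design allows. For the 14 milk protein genes encoded elsewhere the median log2 fold change was -0.66, against -0.04 over all genes, and none was called.

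Csn1s2b had 74, 172, 49 and 39 reads in the same libraries, or 6.94, 15.7, 3.34 and 2.62 normalized CPM. All 4 lay below the lowest WT library (42.7), and the SD was 5.54% of the WT mean (n = 4). The log2 fold change was -3.96 (SE 0.97, 95% interval -5.85 to -2.06), and its adjusted p of 0.0879 in edgeR did not pass the threshold, with 0.314% of all genes called. In a fit of only these 2 groups the change was -3.95 with an adjusted p of 0.00174. That fit called 824 genes, against 56 in the main one. The exact permutation p was again 0.0571. Csn3, on the far side of the deletion, fell by 6.00 (SE 0.88, adjusted p = 0.00994), and Csn1s1 and Csn2 changed by -1.16 and -0.52 without passing the test.

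Muscle transcripts moved with this comparison. The summed level of the 8 muscle markers was 3.65, 1049 and 1552 normalized CPM in the WT libraries at p18 and 5.52 to 14.7 in the ΔSE libraries. WT library 1, which had as little muscle RNA as the ΔSE libraries, had the highest Csn1s2b level of the WT group. Without it the log2 fold change of Csn1s2b was -2.93, in a fit that kept only the WT libraries with much muscle RNA (1049 and 1552). That fit does not separate genotype from muscle RNA, and the part of muscle RNA in the result was not tested.

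At p6 the mean level of Csn1s2a in ΔSE tissue was 3.42% of the WT mean. Csn1s2a had 559, 232, 139 and 663 reads in the ΔSE libraries, or 31.5, 12.2, 10.99 and 32.8 normalized CPM. Of the WT libraries, 2 stood at 926 and 964 and the other at 30.3, within the ΔSE range, so the groups overlapped. The log2 fold change was -4.85 (SE 0.77, edgeR adjusted p = 0.0183), in a comparison with 1.03% of genes called. The exact two-sided permutation test of the levels gave p = 0.171, where the smallest possible was 0.0571. The call was lost without ΔSE library 3 or library 4 (adjusted p = 0.0513 and 0.0666) and in a fit of the 2 groups alone (adjusted p = 0.251), while the log2 fold change stayed between -5.13 and -4.63 there. With 1 factor of unwanted variation it was -4.14 (adjusted p = 0.0926). The other caseins were called as well, with log2 fold changes of -4.72 for Csn1s1, -4.85 for Csn2 and -7.13 for Csn3. WT library 2 lay within the ΔSE range for Csn1s1 and Csn2 too, so these groups also overlapped. It stood at 43.7 and 30.8 normalized CPM, where the highest ΔSE libraries had 96.5 and 50.2. For Csn3 the groups did not overlap, with 46.4 in WT library 2 and at most 5.84 in ΔSE tissue. For the 14 milk protein genes encoded elsewhere the median log2 fold change was -1, and 3 were called lower. The 8 luminal markers summed to 514 to 998 normalized CPM in ΔSE and 906 to 1134 in WT tissue. The 7 adipocyte markers summed to 2466 to 4637 and 1849 to 2814, and the part of either list in the result was not tested.

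Csn1s2b at p6 rested on few reads and on 1 library. The ΔSE libraries had 2, 2, 0 and 201 reads, or 0.113, 0.105, 0 and 9.95 normalized CPM, against 1.65 to 5.01 in WT tissue. The fourth library lay above every WT library and the other 3 lay below all of them. Over all 4 libraries the log2 fold change was -0.41 (SE 1.07, edgeR adjusted p = 0.898), and the exact permutation p of the levels was 0.229. In the other 3 libraries together 4 reads were counted, which is 0.0809 normalized CPM with an exact Poisson interval from 0.0220 to 0.207. That is 2.19% of the WT mean, and at most 5.60% by the upper bound, covering counting error only. Without ΔSE library 4 and WT library 2 the fitted change was -5.75 with an adjusted p of 0.0135, a setting chosen after the values were seen. That fit called 1202 genes, against 183 in the main one. Without ΔSE library 4 alone it was -5.38 (adjusted p = 0.123), beside -5.13 for Csn1s2a. The group medians were 2.46% of WT for Csn1s2b and 2.36% for Csn1s2a.

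ΔSE library 4 at p6 also stood apart in other genes. It had 118 reads of Csn3 against 0 to 12 in the other 3, and 240 of Wap against 11 to 54. Its reads of Csn1s1 (770) and Csn2 (661) lay within the range of the others, and those of Csn1s2a (663) were the highest by a small margin over library 1 (559). Its muscle markers summed to 3698 normalized CPM, and those of library 2 to 2638 with 2 reads of Csn1s2b. The adipocyte markers of library 4 summed to 4637 normalized CPM against 2466 to 3040 in the other 3, and its luminal markers to 514 against 756 to 998, the highest and the lowest of all 19 libraries. The origin of the reads in library 4 was not tested.

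Within ΔSE tissue Csn1s2a rose from p6 to p18 in all libraries, by 9.70 on the log2 scale (SE 0.93, edgeR adjusted p = 2.07e-06), with 35.6% of all genes called. Csn1s2b changed by 1.37 (SE 0.98, adjusted p = 0.298), and its 2 stages overlapped through library 4 at p6. Without that library the change was 6.35 (adjusted p = 0.00101), a value that depends on the prior count since it sets 39 to 172 reads against 0 to 2. Csn1s1, Csn2 and Csn3 rose by 7.99, 9.24 and 5.67. All 14 milk protein genes encoded elsewhere rose here too. So did all 8 luminal markers (median log2 fold change 0.97), while all 8 muscle markers fell (median -7.43), from summed levels of 50.6 to 3698 normalized CPM at p6 to 5.52 to 14.7 at p18, and the part of either in the result was not tested. With 1 factor of unwanted variation the call of Csn1s2a was lost (5.90, adjusted p = 0.9999).

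The interaction of genotype and stage asks whether the rise in pregnancy differed between ΔSE and WT tissue. It was 4.06 for Csn1s2a (SE 1.02, edgeR adjusted p = 0.0894) and -3.54 for Csn1s2b (SE 1.44, adjusted p = 0.240), with 0.151% of genes called. Neither passed the threshold. For Csn1s2a it passed without WT library 2 at p6 (4.66, adjusted p = 0.000567), in a fit with 1036 genes called against 27 in the main one. For Csn1s2b the sign turned without ΔSE library 4 at p6 (1.45, adjusted p = 0.768). Csn1s1 and Csn2 had interactions of 3.57 and 4.32, and Csn3 of 1.13.

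**Figure D2:**
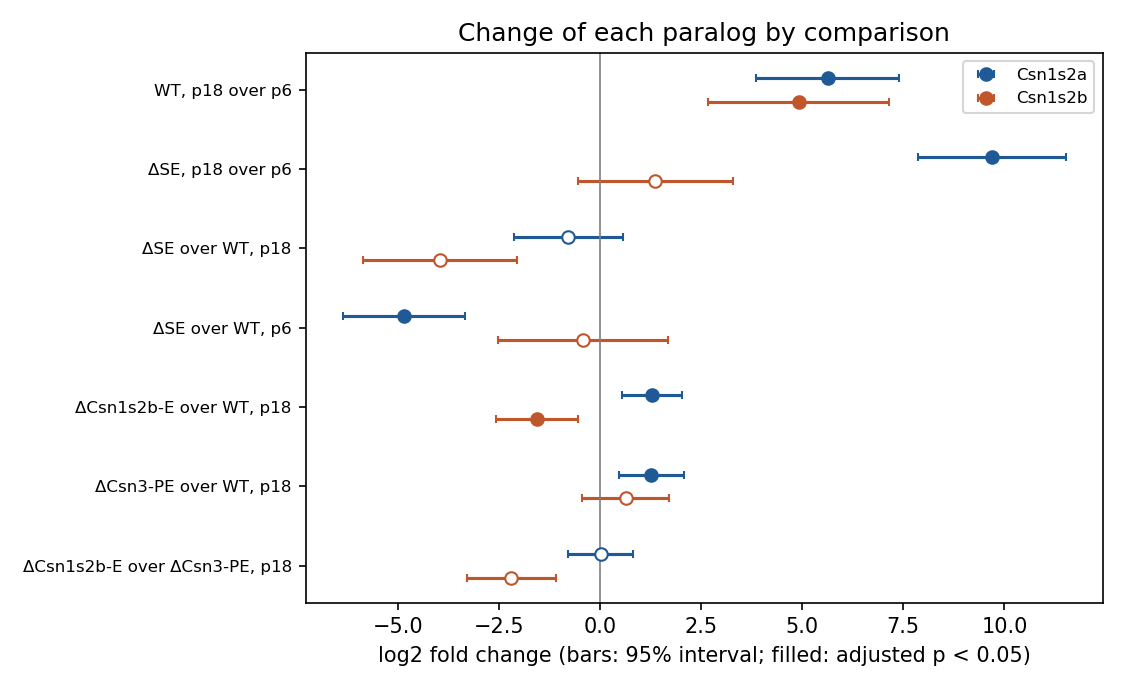
Log2 fold change of Csn1s2a and Csn1s2b in 7 comparisons, with 95% intervals from the edgeR models and filled points for an adjusted p under 0.05. The points of the pair lie farthest apart in ΔSE tissue from p6 to p18 (9.70 and 1.37).

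ΔCsn1s2b-E tissue had less Csn1s2b and more Csn1s2a than WT tissue at p18. Its libraries belong to another set than WT and their stage is uncertain, so set, stage and genotype cannot be told apart. Csn1s2b had 897, 1387 and 1101 reads in the mutant, or 27.8, 51.5 and 36.8 normalized CPM. The highest of these exceeded the lowest WT library, and the exact permutation p of the levels was 0.2, where the smallest possible was 0.1. Other caseins were higher too, with log2 fold changes of 1.01 for Csn2 (adjusted p = 0.0447), 1.33 for Csn3 (adjusted p = 0.0486) and 0.73 for Csn1s1, which was not called. The log2 fold change of Csn1s2b was -1.56 (SE 0.52, edgeR adjusted p = 0.0394), with 32.3% of all genes called. It shrank to -0.56 (adjusted p = 0.228) without WT library 1, the library with the highest Csn1s2b, and the call was also lost without mutant library 1 or 3 (adjusted p = 0.118 and 0.101). Csn1s2a had 2090652, 2803608 and 2135910 reads, or 64679, 104147 and 71465 normalized CPM, all above WT. Its log2 fold change was 1.29 (SE 0.38, adjusted p = 0.0237), and the call was lost without WT library 2 or 3 or mutant library 1 or 2 (adjusted p = 0.0534 to 0.0999). The 8 muscle markers summed to 17.5 to 674 normalized CPM in these libraries, against 3.65 to 1552 in WT tissue, and their part was not tested. With the replicate number as a block the adjusted p was 0.0837 for Csn1s2b and 0.0680 for Csn1s2a, and whether the numbers pair libraries is not known.

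Csn1s2a was also higher than in WT tissue in ΔCsn3-PE tissue, where the deletion lies at Csn3. Its reads were 2900032 and 2074875, or 102027 and 55700 normalized CPM, and the log2 fold change from WT was 1.27 (SE 0.41, edgeR adjusted p = 0.0427), with 25.2% of genes called. Leaving out any of the 3 WT libraries, or ΔCsn3-PE library 1, raised the adjusted p above the threshold (0.0587 to 0.230), as did RLE size factors (0.0536), a fit of these 2 groups alone (0.120), the replicate block (0.170), 1 factor of unwanted variation (0.158) and a fit of all 19 libraries (0.238). Csn1s1 and Csn2 had log2 fold changes of 0.79 and 0.95, which were not called, and 5 of the 14 milk protein genes encoded elsewhere were called higher. The muscle markers summed to 1.65 and 35.8 normalized CPM, against 3.65 to 1552 in WT tissue (median log2 fold change -5.54), and their part was not tested. Csn1s2b had 6545 and 4536 reads, or 230 and 122 normalized CPM, against 42.7 to 217 in WT tissue. Its log2 fold change was 0.63 (SE 0.55, adjusted p = 0.431), and 1.63 without WT library 1 (adjusted p = 0.0207). The targeted gene, Csn3, fell by 2.96 (SE 0.58, adjusted p = 0.00619).

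The comparison of these lines with each other stays within 1 set of libraries. Csn1s2a differed by 0.01 on the log2 scale (SE 0.41, 95% interval -0.80 to 0.82, edgeR adjusted p = 1). Csn1s2b was lower in ΔCsn1s2b-E tissue by 2.19 (log2 fold change -2.19, SE 0.56, 95% interval -3.29 to -1.10), at an unadjusted p of 0.00248 and an adjusted p of 0.350, with 0.181% of genes called. The levels did not overlap, and the mean of ΔCsn1s2b-E tissue was 22.0% of that of ΔCsn3-PE tissue.

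Reads of Csn1s2a per read of Csn1s2b in the same library are free of any scaling between libraries. In WT tissue at p18 it was 155, 498 and 642, and in ΔSE tissue 3365, 1356, 3725 and 5767, with no overlap. The mean log2 ratio, with 0.5 added to both counts, was 8.52 in WT and 11.61 in ΔSE tissue, a difference of 3.09 (exact two-sided permutation p = 0.0571, 0.2 after adjustment over 7 comparisons). In ΔCsn1s2b-E tissue the ratio was 2331, 2021 and 1940, all above the WT libraries, and the log2 difference from WT was 2.51 (exact permutation p = 0.1, adjusted 0.233). In ΔCsn3-PE tissue it was 443 and 457, within the WT range. The smallest p for these designs was 0.0571, 0.1 and 0.2, so that none of them could pass 0.05.

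At p6 the ratio was 209, 18.3 and 192 in WT tissue and 280, 116 and 3.30 in 3 ΔSE libraries, and ΔSE library 3 had 139 reads of Csn1s2a and 0 of Csn1s2b. The groups overlapped, and the log2 difference was -0.44 (exact permutation p = 0.914). Between the stages the log2 ratio rose by 5.56 in ΔSE tissue (exact permutation p = 0.0286, the smallest possible, adjusted 0.2) and by 2.04 in WT tissue (p = 0.3, adjusted 0.42). The rise was 4.12 in ΔSE tissue without library 4 at p6 and 0.88 in WT tissue without library 2 at p6. The difference between the rises was 3.52 (SE 2.03), or 2.08 without ΔSE library 4, and was given no test.

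**Figure D3:**
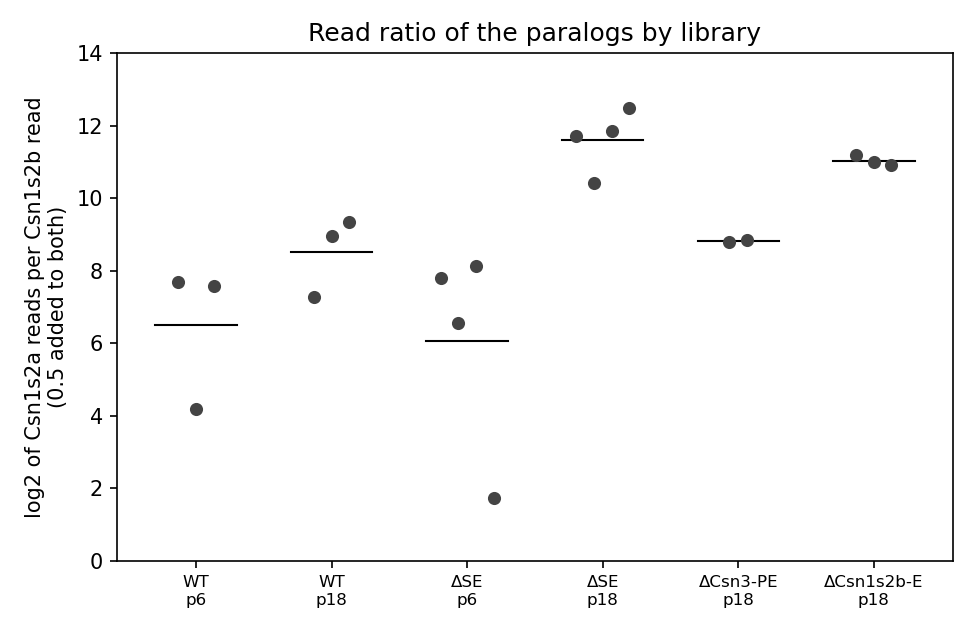
Log2 of Csn1s2a reads per Csn1s2b read in each library (0.5 added to both counts), with a bar at the group mean. The 4 ΔSE libraries at p18 lie between 10.40 and 12.48 and the 3 ΔCsn1s2b-E libraries between 10.92 and 11.19, above the 3 WT libraries at p18 (7.28 to 9.33).

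As a share of all reads on the 5 casein genes, Csn1s2a varied little among replicates at p18. It took 36.0 to 37.6% in WT tissue, 39.4 to 40.7% in ΔSE tissue, 46.1 and 47.1% in ΔCsn3-PE tissue and 41.9 to 43.5% in ΔCsn1s2b-E tissue. These ranges do not overlap, and since Csn3 leaves the pool in ΔSE and ΔCsn3-PE tissue the shares of the other caseins are not independent of it. Csn1s2b took 0.0581 to 0.242% in WT tissue at p18, 0.00704 to 0.0300% in ΔSE tissue, 0.103 and 0.104% in ΔCsn3-PE tissue and 0.0183 to 0.0216% in ΔCsn1s2b-E tissue. Relative to Csn2, Csn1s2a had 1.28 to 1.40 reads per read in WT tissue at p18 and 1.06 to 1.18 in ΔSE tissue. The same quotient was 1.57 to 1.66 in ΔCsn1s2b-E and 1.67 in both ΔCsn3-PE libraries. These shares and quotients are descriptions and were not tested.

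**Figure D4:**
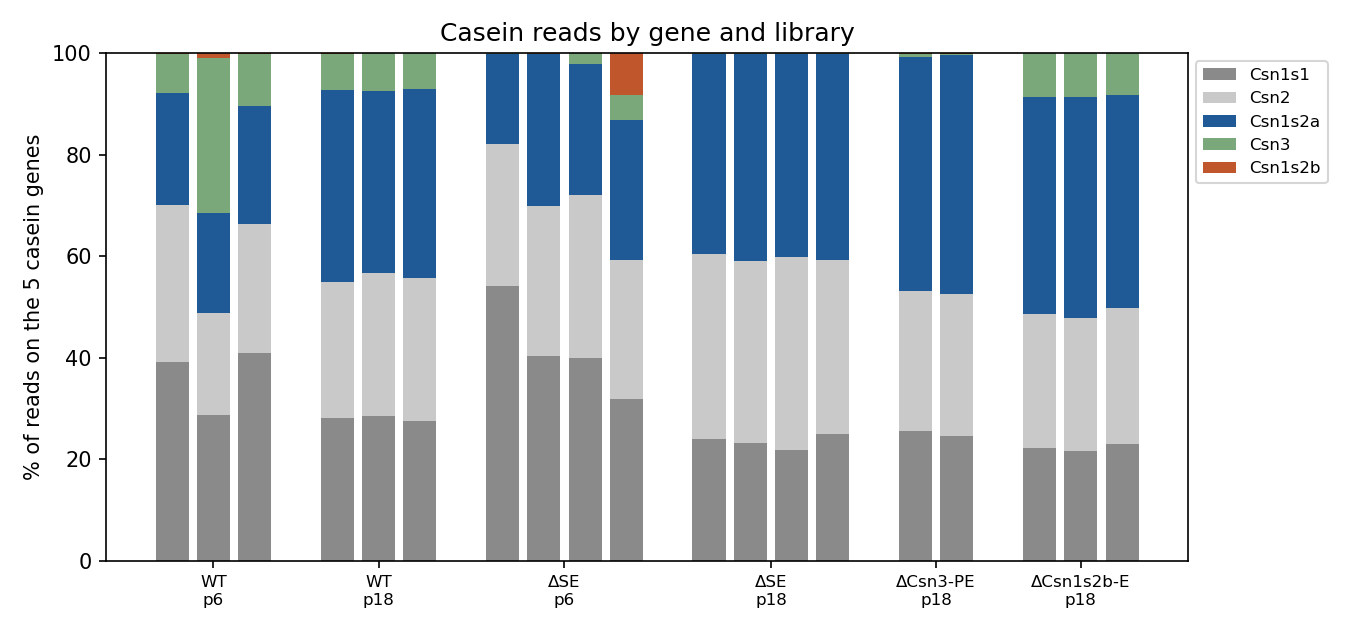
Percent of the reads on the 5 casein genes that fell on each, 1 bar per library in replicate order within groups. Csn1s2a takes 36.0 to 47.1% at p18, and Csn1s2b is visible in 2 libraries at p6, WT library 2 (1.08%) and ΔSE library 4 (8.33%).

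Across the 14 WT and ΔSE libraries the levels of the paralogs were most like those of different genes. The ranking covered 11467 genes with a mean of at least 50 reads and left out predicted symbols (Gm with digits, or ending in Rik). In it the log2 level of Csn1s2a was most like that of Csn2 (Pearson r = 0.999), Hhipl2 (0.995), Elf5 (0.994), which encodes a transcription factor of the alveolar lineage, Csn1s1 (0.993) and Xbp1 (0.992), a regulator of secretory capacity. Csn1s2b was most like Cd55 (0.943), which encodes a complement regulator, followed by Cgrrf1 (0.939), Eef1e1 (0.932), Mpp7 (0.927) and Zfp758 (0.920). Csn3 ranked 22nd for Csn1s2b (0.892) and 1445th for Csn1s2a (0.818). The paralogs correlated at 0.760 with each other. These values describe 14 libraries that share stage and genotype and carry no test. They include ΔSE library 4 at p6, with 201 reads of Csn1s2b, and the other ΔSE libraries at p6, with 0 to 2. How far the values for Csn1s2b rest on these libraries was not tested.

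A list of 21 genes covers the prolactin pathway and the factors at casein enhancers. Between p6 and p18, 5 rose and 6 fell in WT tissue, and 10 rose and 3 fell in ΔSE tissue, where 29.6% and 35.6% of all genes were called. Elf5 rose by 2.62 in WT and by 3.68 in ΔSE tissue, and Stat5a, which encodes one of the STAT5 proteins, by 0.76 and 1.28. Between ΔSE and WT tissue none of the 21 was called at p18, where 0.314% of all genes were. At p6, where 1.03% of all genes were called, 2 of the 21 fell. These were Elf5 (by 1.55, edgeR adjusted p = 0.0458) and Cish (by 1.25, adjusted p = 0.0328), a STAT5 target that dampens cytokine signalling. A fit of only these 2 groups at p6 called 0 genes, so both calls were lost there. In ΔCsn1s2b-E tissue 5 rose and 4 fell against WT, and in ΔCsn3-PE tissue 3 rose and 6 fell, beside 32.3% and 25.2% of all genes called. Nfic and Nfix, relatives of NFIB, fell in both, with log2 fold changes of -1.16 and -0.79 in the former and -1.51 and -1.13 in the latter. Of the genes between Csn1s2b and Csn3, Prr27 had 0 to 2 reads and Odam 0 to 7 in any library, and Fdcsp was not analysed here.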

How the data were processed

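Total RNA-seq counts of mammary tissue were analysed in 19 libraries, grouped by the genotype and stage labels. The authors trimmed paired-end reads with Trimmomatic, aligned them to mm10 with STAR and counted reads per gene with HTSeq, and the deposited values are counts without normalization. Entries that name no gene, present in the files of the 5 single-enhancer libraries, were left out. Of all counts in a library, they held 13.2 to 20.9% outside genes, 0.672 to 0.821% ambiguous and 8.57 to 9.62% not unique. Counts were tested with edgeR (version 4.0.16, R 4.3.3), glmQLFit and glmQLFTest with TMM factors and genes of at least 10 reads in total, first over WT and ΔSE tissue (14 libraries, 17844 genes) and then over WT, ΔCsn3-PE and ΔCsn1s2b-E tissue at p18 (8 libraries, 17125 genes). The threshold was a Benjamini-Hochberg adjusted p of 0.05, two-sided, over all genes of the model. Ratios were tested by exact two-sided permutation. DESeq2 (version 1.42.0), other scalings and filters, 1 factor of unwanted variation, a replicate block and each library left out were alternatives. The removal of 2 libraries together was added after the data were seen. The paper describes replicates as independent; where the labels do not say so, p-values measure the spread between these libraries. Intervals on counts are exact Poisson intervals (95%) and cover counting error only. Named genes were the caseins, their interspersed genes, the 5 genes most like each member, and listed genes with the smallest p. Members and lists were chosen with earlier results of these data known. Sequences came from GENCODE (GRCm38) transcripts and RefSeq promoters (3 of 5 caseins matched), aligned with Biopython (version 1.88).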

Additional observations from a re-analysis of the deposited data

Results flagged for a closer look

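Among 6 groups of values tested (both genes and their ratio, in ΔSE tissue at p6 and at p18), 1 sample stood far from the others. Csn1s2b reached 9.95 normalized CPM in ΔSE library 4 at p6, and its gap to the next library was 0.989 of the range of the group, above the critical value of 0.829 for 4 samples. About 1 in 20 such groups is expected to exceed this limit by chance. The level was 123 times that of the other 3 libraries pooled, which rests on 4 reads.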

How the results depend on the processing

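The fold changes and ratios of the pair gave 24 results with 347 alternatives, of which 298 kept direction and side of the threshold, 29 lost a call, 9 gained one and 11 moved without a call on either side. These counts include the read ratios, which could not pass the threshold after adjustment in any of the 7 comparisons, and the untested difference between their rises. For these the side of the threshold was fixed in advance. With 1 factor of unwanted variation the calls were lost for the stage change in WT tissue (3.36 for Csn1s2a and 3.59 for Csn1s2b), for Csn1s2a in ΔSE tissue (5.90), for Csn1s2a in ΔSE against WT tissue at p6 (-4.14) and for Csn1s2a in ΔCsn1s2b-E (1.14) and ΔCsn3-PE (1.03) against WT tissue. The factor turned the stage change of Csn1s2b in ΔSE tissue to -0.82 and that in ΔCsn3-PE against WT tissue to -0.0011, and brought Csn1s2b between the single-enhancer lines past the threshold (-1.78). The factor was positive in all libraries at p6 and negative at p18 among WT and ΔSE libraries.

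A fit of only the groups compared brought Csn1s2b in ΔSE against WT tissue at p18 past the threshold (-3.95) and took the calls from Csn1s2a at p6 (-4.87) and in ΔCsn3-PE tissue (1.25). Using all 19 libraries took the calls of both genes in ΔCsn1s2b-E tissue (1.36 and -1.49) and of Csn1s2a in ΔCsn3-PE tissue (1.33), and RLE size factors the last of these (1.24). DESeq2 called the interaction of Csn1s2a (4.10), with 584 genes called there, and not the fall of Csn1s2b in ΔCsn1s2b-E tissue (-1.60).

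The deviations of same-numbered libraries from their group means had correlations from -0.70 to 0.46, with 7 of 20 over 0.1. Differently numbered libraries were not compared in this way, so the values cannot settle whether the numbers pair libraries. For the read ratio the block kept only numbers that both groups share, so ΔSE library 4 at p6 dropped out. The log2 difference of ΔSE from WT tissue at p6 was then 1.01, the same as without that library. The replicate block took the calls of Csn1s2a (1.30) and Csn1s2b (-1.17) in ΔCsn1s2b-E and of Csn1s2a (1.18) in ΔCsn3-PE tissue. It changed no other call of the pair.

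With WT library 2 and ΔSE library 4 at p6 both left out, a setting chosen after seeing the data, the stage change of Csn1s2b in ΔSE tissue (6.34), its change at p6 (-5.75) and the interaction of Csn1s2a (4.93) were called, and the interaction of Csn1s2b was 1.81. That setting called 1202 genes between genotypes at p6 and 713 for the interaction. Leaving out 1 library at a time gave 0.64 to 6.35 for Csn1s2b between stages in ΔSE tissue and -5.42 to -4.42 for Csn1s2a at p6. The interactions ranged from 3.67 to 4.66 for Csn1s2a and from -4.27 to 1.45 for Csn1s2b. Against WT tissue ΔCsn1s2b-E gave 1.05 to 1.41 and -1.97 to -0.56, and ΔCsn3-PE 0.78 to 1.64 and 0.11 to 1.63, for Csn1s2a and Csn1s2b. Csn1s2a between these lines ranged from -0.35 to 0.50. The log2 ratio ranged from -1.59 to 1.01 for ΔSE against WT tissue at p6 and from -0.33 to 0.69 for ΔCsn3-PE against WT tissue. The causes were not tested.

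The number of genes called over the whole table moved more than the pair. It was between 6 and 824 for ΔSE against WT tissue at p18, between 0 and 1767 at p6 and between 0 and 1036 for the interaction. At p6, 3 of the 4 ΔSE libraries had at most 2 reads of Csn1s2b, which limits any fold change there.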
